A study of Mus musculus with 44 samples.

Results

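Epithelial cells of the small intestine of mouse chimeras at mid-gestation (E13.5) were compared by lineage of origin: cells of extraembryonic origin that carried a Trp53 knockout (exSI, 3 libraries) against wild-type cells of embryonic origin (emSI, 3 libraries), 6 of the 44 RNA libraries of the series. Members were chosen by their labels alone, as every library labelled exSI or emSI. The chimeras were made by aggregating an mCherry+ morula (CD1/G4) with GFP+ mouse embryonic stem cells (G4), clonally derived from the F1G4 line, so that the embryo proper came from the stem cells and the extraembryonic endoderm from the morula. The morulae came from CD-1 females and mCherry+ males of a colony maintained with C57BL/6J females. The morula was edited at the zygote stage with Cas9 and guides against Trp53, and no exSI library was unedited. Cells with the epithelial surface protein EPCAM were sorted by reporter from single embryos, few cells for each library. Lineage, Trp53 genotype, reporter and parental strain therefore changed together between exSI and emSI, and their contributions cannot be told apart.

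The gut of the mouse is built mainly from definitive endoderm, which arises from the epiblast during gastrulation, but some cells of the earlier visceral endoderm, an extraembryonic tissue that feeds the embryo, become woven into the same epithelial sheet. p53 is a transcription factor that switches on genes for cell cycle arrest and cell death after DNA damage and other stress, and cells can be eliminated through it when they are less fit than their neighbours. Extraembryonic tissues carry a different pattern of DNA methylation from the embryo, and promoters of certain X-linked and germline genes are kept methylated and silent in embryonic tissues.

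The libraries were described by TPM, a transcript level scaled for transcript length and for the library total, and every difference is one of mean log2(TPM + 1), a scale on which low genes change less than their TPM ratio. Aligned sequence summed from the deposited coverage ranged from 2.58 to 5.99 Gb, with exSI replicate 2 lowest, and 11415 to 12439 genes lay above 1 TPM in each library. The sort was visible in the reporters. mCherry was at 3016.5, 4203 and 8667 TPM in exSI and was listed at 0 in all 3 emSI libraries, whereas EGFP was at 2.38, 5.67 and 0 TPM in exSI and at 650, 474 and 608 TPM in emSI. Trp53 message (chr11:69580359-69591873, GRCm38) was at 33.4, 167 and 117 TPM in exSI and 172, 158 and 201 TPM in emSI. exSI replicate 1 was lowest, replicate 3 also lay below emSI, replicate 2 lay within the emSI range, and the difference of -1.01 ± 0.46 (SE) did not pass the test (limma adjusted p = 0.49). Small insertions and deletions need not remove a message, so that this level is not a measure of protein. The RNA of Eif2s3y, a Y-linked gene, was at 40.5, 81.4 and 46.8 TPM in exSI and was listed at 0 in the 3 emSI libraries, while Xist stayed under 1 TPM in all 6. Ddx3y, also Y-linked, overlapped, at 14.6, 19.9 and 0 TPM in exSI and 0, 6.49 and 6.13 TPM in emSI. The stem cell line from which emSI cells derive is described as male, and the low level of Y-linked RNA in emSI is at odds with that description. Y-linked RNA thus differed in part between the groups, and its bearing on the results was not tested.

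The epithelial label held. Epcam was at 1344, 1656 and 1134 TPM in exSI and 849, 1135 and 956 TPM in emSI, and Cdx2, the transcription factor that specifies intestine, lay between 96.7 and 260 TPM. Markers of other cells were not evenly spread. The summed level of 20 mesenchyme markers was 190, 84.8 and 131 TPM in exSI and 1686, 466 and 189 TPM in emSI. Col1a1, Col3a1, Lum, Tcf21 and Foxf1, which define fibroblasts of the gut wall, were present in emSI replicates 1 and 2 and at or near 0 in emSI replicate 3 and in exSI. Enteric neural crest markers summed to 76.5, 35.0 and 16.3 TPM in emSI and to at most 6.04 TPM in exSI. The 10 red blood cell and 10 white blood cell markers each summed to under 12 TPM in every library. Of 8 endothelium markers 5 were at 0 in all 6 libraries, and nearly all of the sum came from Egfl7, at 76.1, 110 and 85.2 TPM in exSI and 37.0, 45.2 and 34.5 TPM in emSI. The calls and the list medians were therefore also computed with emSI replicate 3 as the lone embryonic library, which assumes that it varies like the exSI libraries.

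Of 11376 protein-coding genes tested, 1174 (10.3%) had an unadjusted p below 0.05, and 84 (0.738%) differed between exSI and emSI at a limma adjusted p below 0.05 and an absolute log2 difference above 1, of which 58 (0.51%) were higher and 26 (0.229%) lower in exSI. All 84 had groups that did not overlap, against 8.16% of all tested genes that lay wholly higher and 7.58% that lay wholly lower. A small p on the same values all but requires this, so the comparison is no separate support. The filter alone kept the groups apart for 15 rises at 0 in all emSI libraries and 9 falls at 0 in all exSI libraries. The rises reached from 1.01 to 12.23 and the falls from -7.92 to -1.01 on the log2 scale. mCherry among the rises and EGFP among the falls are the reporters used for the sort, so their calls follow from the design. Both were kept in the counts of calls. In a bulk sample, fewer cells expressing a gene and less RNA per cell cannot be told apart. With emSI replicate 3 alone as the embryonic side, all 58 rises and all 26 falls kept their sign, and 58 and 25 of them kept a difference above 1, but only 12 rises and 1 fall passed the test: mCherry, Rhox5, Trap1a, Xlr3a, Xlr3b, Xlr4b, Xlr5a, Xlr5b, Cdkn2a, Mt1, Mt2 and Apoe higher and Slc38a5 lower. Since no called gene had overlapping groups, the kept signs were fixed beforehand and show no robustness. Leaving out any of the 6 libraries in turn, 34 of the 84 were called every time. Without exSI replicates 1, 2 and 3 the calls were 30, 36 and 40 higher and 11, 12 and 23 lower, and without emSI replicates 1, 2 and 3 they were 33, 47 and 38 higher and 13 lower each time.

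**Figure D1:**
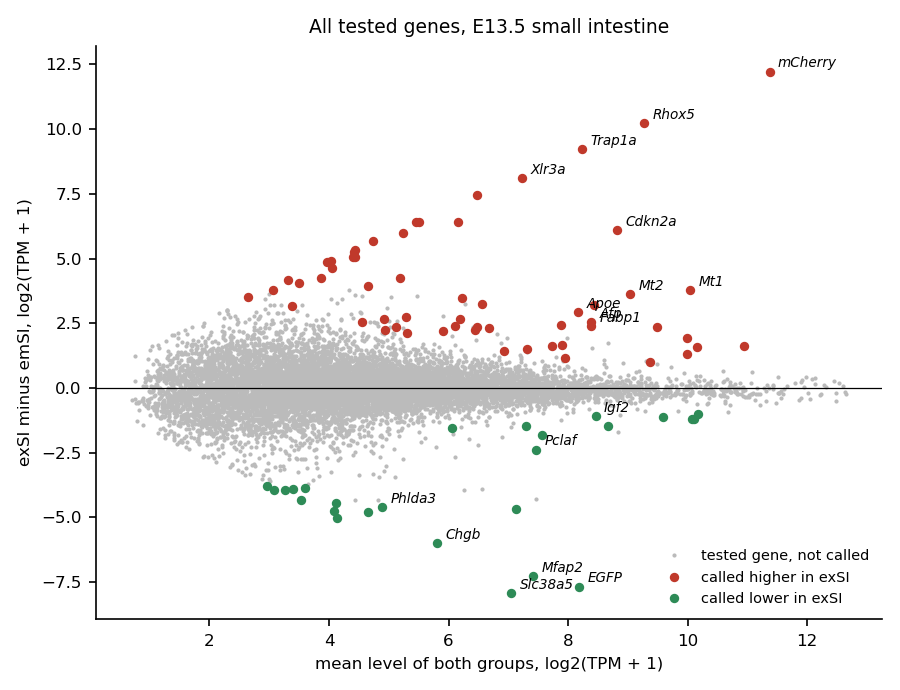
Difference between exSI and emSI (y axis, log2(TPM + 1)) against the mean level of both groups (x axis, log2(TPM + 1)) for the 11376 tested genes. Red points are the 58 genes called higher and green points the 26 called lower, and the reporters, Rhox5 and Slc38a5 lie at the extremes.

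The most uniform group among the rises was a set of X-linked genes. It held genes of the Rhox and Xlr clusters and Trap1a, which lies elsewhere on the X chromosome. Rhox genes encode homeobox proteins of the reproductive tract and placenta, Xlr genes encode nuclear proteins related to the synaptonemal complex, and Trap1a encodes an antigen of tumour and germ cells. All 12 of the 17 listed genes that passed the filter on low values were called higher, with a median difference of 6.42 against -0.0044 for all tested genes, and 7 of them were called without the 2 mesenchyme-containing emSI libraries. At most 1 of the 17 listed genes lay above 1 TPM in any emSI library, so none could pass the filter without exSI. The higher direction of all 12 was therefore built into the selection. Among all tested genes 0.51% were called higher. Of the 58 rises, 15 (25.9%) lay on the X chromosome, which held 3.51% of the tested genes. The RefSeq promoter windows (250 bases before to 50 after the start, GRCm38.p6) are shown here for 5 of the X-linked rises, each holding the motif CCAAT. Capitals mark CCAAT, read on both strands, the box bound by the factor NF-Y.

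Rhox5, chrX:37754358-37754657, plus strand: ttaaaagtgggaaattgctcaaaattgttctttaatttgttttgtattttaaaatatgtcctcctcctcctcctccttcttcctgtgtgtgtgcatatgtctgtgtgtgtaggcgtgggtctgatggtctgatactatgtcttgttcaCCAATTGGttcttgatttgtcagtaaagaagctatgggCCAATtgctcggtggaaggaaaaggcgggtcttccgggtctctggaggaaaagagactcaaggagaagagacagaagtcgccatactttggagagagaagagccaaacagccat

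Trap1a, chrX:139333433-139333732, plus strand: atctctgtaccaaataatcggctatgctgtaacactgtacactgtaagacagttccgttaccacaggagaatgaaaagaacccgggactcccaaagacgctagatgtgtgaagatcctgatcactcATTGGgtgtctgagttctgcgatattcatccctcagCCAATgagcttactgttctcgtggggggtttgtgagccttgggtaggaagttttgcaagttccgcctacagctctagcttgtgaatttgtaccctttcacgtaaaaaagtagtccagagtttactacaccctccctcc

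Xlr3a, chrX:73097046-73097345, minus strand: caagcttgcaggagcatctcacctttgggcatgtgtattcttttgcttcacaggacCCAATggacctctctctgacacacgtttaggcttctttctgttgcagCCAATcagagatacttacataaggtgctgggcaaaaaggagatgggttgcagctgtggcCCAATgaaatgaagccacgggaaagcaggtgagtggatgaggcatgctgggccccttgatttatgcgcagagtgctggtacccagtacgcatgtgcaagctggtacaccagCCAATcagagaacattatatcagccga

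Xlr3b, chrX:73191929-73192228, plus strand: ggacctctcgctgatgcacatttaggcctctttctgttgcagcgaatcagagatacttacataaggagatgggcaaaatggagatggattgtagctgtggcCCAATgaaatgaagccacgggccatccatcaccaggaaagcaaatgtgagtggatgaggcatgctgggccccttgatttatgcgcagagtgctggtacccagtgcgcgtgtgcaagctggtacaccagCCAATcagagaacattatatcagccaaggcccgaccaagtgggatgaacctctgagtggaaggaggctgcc

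Xlr3c, chrX:73265341-73265640, minus strand: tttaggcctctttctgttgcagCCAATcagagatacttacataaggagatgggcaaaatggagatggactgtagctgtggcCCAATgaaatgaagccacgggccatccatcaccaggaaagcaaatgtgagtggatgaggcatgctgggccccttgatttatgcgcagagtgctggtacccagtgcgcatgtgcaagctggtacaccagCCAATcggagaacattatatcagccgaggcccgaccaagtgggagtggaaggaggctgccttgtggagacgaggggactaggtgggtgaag

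CCAAT occurred in these windows 3 times in Rhox5 (one pair of matches, on opposite strands, overlaps), 2 in Trap1a, 4 in Xlr3a, 2 in Xlr3b and 3 in Xlr3c. Of the 15 X-linked rises, 14 had a promoter entry and 13 of those held the motif, among windows of which 93.3% did, against 37.4% of all 32851 windows, 38.4% of those of tested genes and 36.6% of those of rises elsewhere. The Xlr3 windows are near copies, with 93.7% identity between Xlr3a and Xlr3b, 95.4% between Xlr3a and Xlr3c and 98.1% between Xlr3b and Xlr3c over the bases aligned, so they are not independent occurrences. The Xlr4 and Xlr5 genes are likewise families of copies, so the share among X-linked rises rests largely on related windows. No rule for choosing the motif was stated, and no share was computed for X-linked promoters in general. The level of one near-identical copy can hold reads of another, which makes the split among Xlr3a, Xlr3b and Xlr3c, and likewise among Xlr4 and Xlr5 copies, uncertain. Xlr5c held no CCAAT in its window, and Rhox6 had no entry. The Rhox5 window is the RefSeq start, and the gene model of the annotation begins elsewhere on chrX (37804842-37808876).

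Rhox5 was at 1185.5, 977 and 1548 TPM in exSI and listed at 0 in all emSI libraries. No other gene of the set reached these levels, and the groups were far apart (difference 10.25 ± 0.36, limma adjusted p = 2.5e-08). Trap1a followed, with 626, 535 and 637 TPM in exSI and 0 in emSI (9.23 ± 0.40, limma adjusted p = 1.8e-07). Xlr3a was at 321, 264 and 310 TPM in exSI and 0.253, 0 and 0 TPM in emSI, and Xlr3b, at 144, 136 and 140 TPM in exSI, was at 3.42, 0 and 0 TPM in emSI. Xlr5a reached 143, 195 and 189 TPM in exSI with 0 in emSI, and Xlr4b 88.0, 120 and 60.4 TPM with at most 0.0248 TPM in emSI. Rhox6 was the most uneven of the set, at 28.0, 66.4 and 126 TPM in exSI. The other 5 members, Xlr3c, Xlr4a, Xlr4c, Xlr5b and Xlr5c, differed by between 4.26 and 6.41. The E13.5 colon contrast, from other libraries, also called all 12 of the tested members higher (0.233% of all tested genes). The median difference in the colon was 6.93. The listed genes summed to 0.711, 0 and 11.8 TPM in emColon, so none could pass the filter without exColon. Their direction was thus built into the selection there too. The E9.5 midgut contrast, in which both sides were wild type, called 11 of 14 higher (1.23% of all tested genes) with a median of 6.19.

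Germline genes outside these clusters, whose promoters are usually methylated in somatic cells, were partly higher. Of 38 listed genes 12 passed the filter, 4 were called higher (33.3%, against 0.51% of all tested genes) and none lower, and the median was 1.27, and none of the 4 was called without the 2 mesenchyme-containing emSI libraries. As with the X-linked set, genes at 0 in emSI passed the filter only through exSI, so the direction of this share and median was built into the selection. Of the 38 genes, 17 stayed under 1 TPM in each library, and 12 of these were listed at 0 in all 6. Mageb16, an X-linked gene of the melanoma antigen family, was at 55.8, 27.4 and 41.1 TPM in exSI and 0 in emSI. Tex19.1, which restrains transposons in germ cells and placenta, was at 69.9, 40.4 and 11.3 TPM against 0, and Slc25a31, a mitochondrial ADP/ATP carrier of sperm, at 24.9, 11.99 and 16.8 TPM against 0. Rnf17, a component of germ granules, was at 20.4, 14.3 and 18.6 TPM in exSI and 1.06, 1.14 and 0.939 TPM in emSI. exSI replicate 3 was the lowest of the 3 for Tex19.1, and none of these 4 genes overlapped between groups. With a library left out, Mageb16 was called in all 6 fits, Tex19.1 in 4, Slc25a31 in 3 and Rnf17 in 0. Rec8, a meiotic cohesin subunit, differed by 3.29 ± 0.72 but missed the threshold (limma adjusted p = 0.074). Tekt5 and Tex101 were listed at 0 in all 6 libraries.

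**Figure D2:**
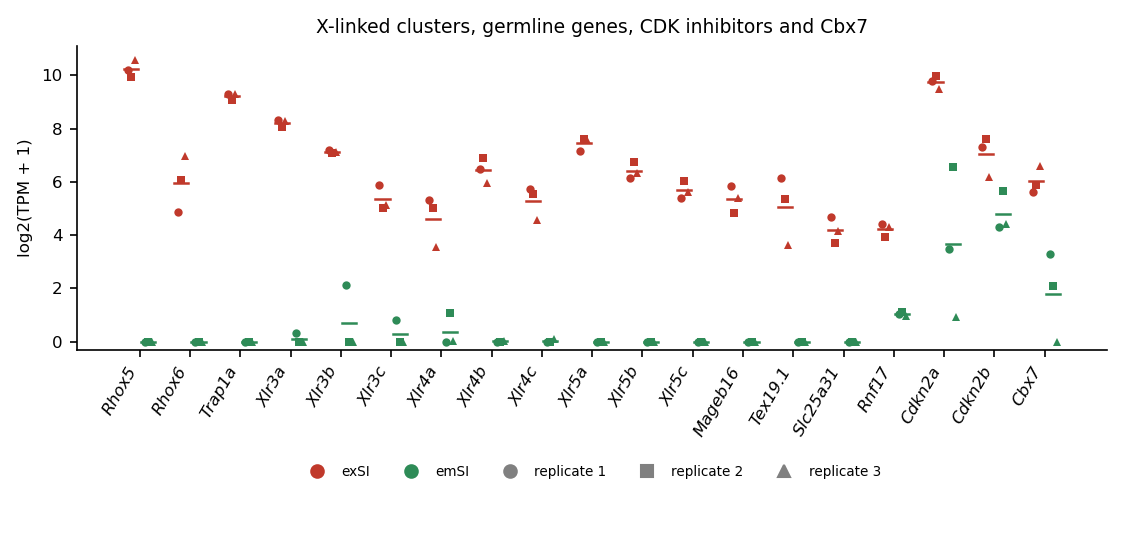
Level (y axis, log2(TPM + 1)) of X-linked, germline and CDK inhibitor genes and Cbx7 in each library, with exSI in red, emSI in green, the marker shape giving the replicate and the bar the group mean. The 12 X-linked genes are separated between groups in every library, with at most 3.42 TPM in emSI (Xlr3b, replicate 1), and emSI replicate 2 stands above the other emSI libraries for Cdkn2a.

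Both genes of the Ink4 locus were higher in exSI. Cdkn2a (chr4:89274471-89294653), which encodes the CDK4/6 inhibitor p16 and, from another reading frame, Arf, the protein that protects p53 from Mdm2, was at 885, 1005 and 723 TPM in exSI and 10.1, 93.4 and 0.892 TPM in emSI. Every exSI library was above every emSI library, and emSI replicate 2 stood above the other two (difference 6.11 ± 0.99, limma adjusted p = 0.015). The gene level does not separate the p16 transcript from Arf. Cdkn2b, encoding the neighbouring inhibitor p15, was at 159, 195 and 72.3 TPM against 18.9, 49.1 and 20.6 TPM (2.25 ± 0.45, limma adjusted p = 0.046). Both calls were sensitive to single libraries: each held in 2 of the 6 fits with a library left out. Of the 6 listed CDK inhibitors tested these 2 (33.3%, against 0.51% of all tested genes) were called and the other 4 were not, among them Cdkn1a, which encodes the p53-induced inhibitor p21, at 236, 217 and 368 TPM in exSI and 236, 376 and 250 TPM in emSI. Cdkn2d had a difference of -2.06 ± 0.51 (limma adjusted p = 0.13). The list median was -0.32, or 0.04 without the 2 mesenchyme-containing emSI libraries. In the E9.5 midgut, both sides wild type, 2 of 6 CDK inhibitors were called higher (1.23% of all tested genes), with a median of 0.41. In E13.5 colon 1 of 6 was called higher (0.233% of all tested genes), with a median of 2.16 beside 0.23 for all genes. Of 23 Polycomb genes, the midgut contrast called 1 higher and the colon contrast 0. Of 23 tested Polycomb genes 1 was called higher (4.35%, against 0.51% of all tested genes), Cbx7, a reader of the mark H3K27me3 that binds the Ink4 locus, at 48.0, 58.0 and 94.7 TPM in exSI against 8.76, 3.26 and 0 TPM in emSI (4.23 ± 0.76, limma adjusted p = 0.029). The Cbx7 call held in 2 of the 6 fits with a library left out, and the median of that list was 0.03, or 0.25 without the 2 mesenchyme-containing emSI libraries.

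Of 29 tested p53 targets, none was called higher in the Trp53 knockout exSI cells and 1 was called lower, where 0.51% and 0.229% of all tested genes were, so that these counts do not set the list apart from the background, with a median of -0.36 (-0.44 without the 2 mesenchyme-containing emSI libraries). The one called gene was Phlda3 (chr1:135766119-135769136), whose product represses Akt signalling. It was at 0, 0 and 9.77 TPM in exSI and 58.2, 67.1 and 36.8 TPM in emSI, so no exSI library came near the emSI range, and the difference of -4.60 ± 0.88 passed the test (limma adjusted p = 0.038) but held in only 1 of the 6 leave-one-out fits and not without the 2 mesenchyme-containing emSI libraries (-4.10, limma adjusted p = 0.79). Ccng1, a cyclin induced by p53, was at 12.2, 13.9 and 11.9 TPM in exSI and 22.2, 46.0 and 18.7 TPM in emSI, again without overlap (difference -1.03 ± 0.49), and missed the threshold (limma adjusted p = 0.51). Psrc1, a spindle regulator, was at 6.37, 13.3 and 10.4 TPM against 43.7, 56.0 and 20.8 TPM (-1.84 ± 0.52, limma adjusted p = 0.2). Targets were not uniformly low. Trp53inp1, a p53 cofactor involved in autophagy, was at 38.1, 36.9 and 33.1 TPM in exSI and 6.48, 2.79 and 19.9 TPM in emSI (2.14 ± 0.62, limma adjusted p = 0.21), and Perp, a desmosome protein, was at 21.6, 28.8 and 10.7 TPM against 11.8, 1.02 and 19.6 TPM. Mdm2, the ligase that degrades p53, was at 40.5, 10.96 and 18.7 TPM in exSI and 65.6, 25.5 and 26.0 TPM in emSI. Of the 14 tested BCL2 family genes none was called, and the median was 0.12, or 0.29 without the 2 emSI libraries. The most abundant of them, the p53-induced death effector Bax, was at 312, 302 and 361 TPM in exSI and 430, 529 and 446 TPM in emSI, with no overlap (-0.52 ± 0.17, limma adjusted p = 0.28).

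The origin difference of p53 targets at E13.5 was then set against that of the E9.5 midgut, where exMidgut (4 libraries) and emMidgut (4) were both wild type for Trp53. In the midgut, 8 of 31 tested targets were called higher in extraembryonic cells and none lower, against 1.23% and 1.35% of all tested genes, with a median of 0.43 beside -0.04 for all genes. Phlda3 there was at 59.7, 83.4, 63.7 and 55.3 TPM in exMidgut and 16.6, 7.47, 9.92 and 21.6 TPM in emMidgut. The origin difference was positive at E9.5 and negative at E13.5, and the small intestine minus midgut interaction was -6.84 ± 0.89 (limma adjusted p = 0.0027). Ccng1 was at 78.7, 114, 63.0 and 135 TPM in exMidgut and 16.2, 14.6, 21.5 and 33.4 TPM in emMidgut, and its interaction was -3.18 ± 0.51 (limma adjusted p = 0.013). These were the only 2 of 32 tested targets that passed the interaction test. The Phlda3 interaction passed in all 14 fits with a library left out and without the 2 mesenchyme-containing emSI libraries (limma adjusted p = 0.046), and that of Ccng1 passed in 13 of 14 but not without those 2 (-2.68, limma adjusted p = 0.073). At an unadjusted p below 0.05, 10 targets had a negative and 1 a positive interaction, where 9.61% of all genes had either, and the list median was -0.88 beside 0.03 for all 13544 genes. The origin difference of Trp53inp1 was positive at both stages but did not pass the test at E13.5 (interaction 0.59 ± 0.59, limma adjusted p = 0.81). Stage, region, Trp53 genotype, the gate for embryonic cells (GFP+ with low mCherry at E9.5, GFP+ at E13.5), the bead enrichment of EPCAM+ cells at E9.5 and the pooling of embryos (several for each E9.5 library, one at E13.5) changed together between these contrasts and cannot be told apart.

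**Figure D3:**
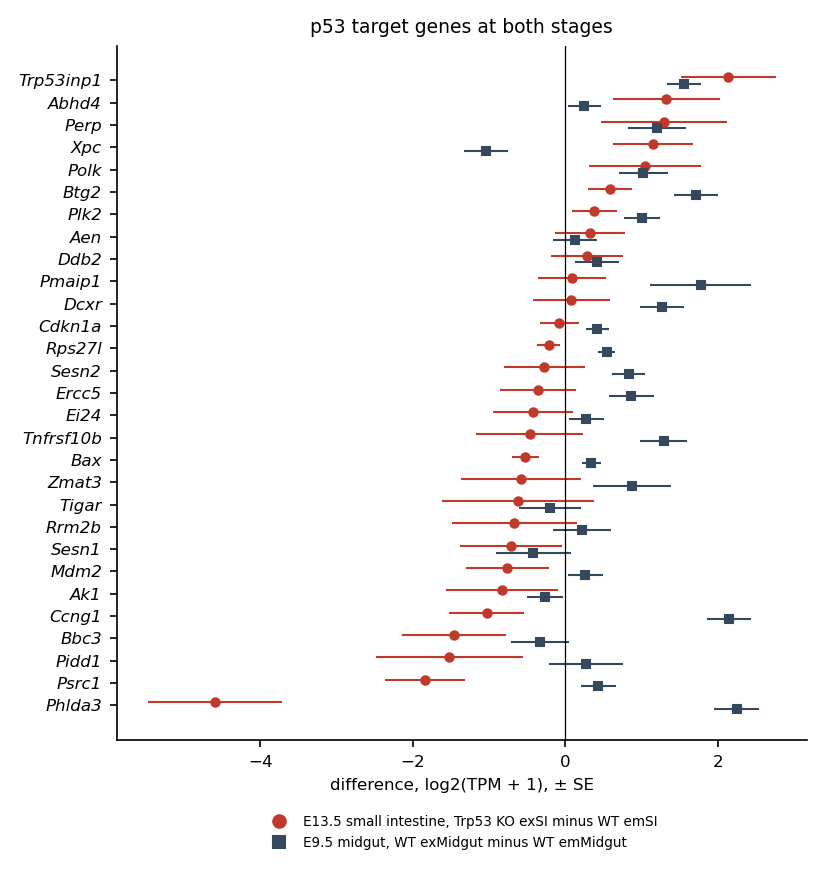
Origin difference (x axis, log2(TPM + 1), bars ± SE) of p53 targets in E13.5 small intestine (red circles) and E9.5 midgut (dark squares), ordered by the small intestine value. Phlda3 and Ccng1 lie at 2.25 and 2.15 in the midgut and at -4.60 and -1.03 in the small intestine, whereas Trp53inp1 is positive in both.

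Some genes of absorptive cells were higher in exSI. Of 27 tested enterocyte genes 6 were called higher (22.2%, against 0.51% of all tested genes) and none lower, 12 had an unadjusted p below 0.05, all higher (5.76% of all tested genes were higher at that level), and the median was 1.16, or 1.28 without the 2 mesenchyme-containing emSI libraries, when none of them was called. The called genes were Apoa1 and Apoc3, apolipoproteins of lipid export, Fabp1 and Rbp2, which carry fatty acids and retinol inside the cell, the membrane mucin Muc13, and Amn, which anchors the receptor for vitamin B12 uptake. Fabp1 was at 385, 1033 and 289 TPM in exSI and 62.3, 156 and 77.3 TPM in emSI (2.41 ± 0.44, limma adjusted p = 0.031). Rbp2 was at 117, 115 and 137 TPM against 8.64, 28.1 and 25.5 TPM (2.67 ± 0.42, limma adjusted p = 0.014). Apoc3 was at 23.6, 40.7 and 23.8 TPM in exSI and listed at 0 in emSI, so that it passed the filter only through exSI and its direction was fixed by the selection. exSI replicate 2 was highest for Fabp1, and none of these 6 genes overlapped between groups. With a library left out, Apoc3 and Amn were called in all 6 fits, Muc13 and Rbp2 in 3 and Fabp1 and Apoa1 in 2. Muc13 was at 150, 164 and 125 TPM against 26.3, 48.7 and 16.7 TPM. Dpp4, the brush border peptidase, showed little difference (0.14 ± 0.39), and Slc5a1, the glucose transporter, was low in both groups. In E13.5 colon none of 21 tested enterocyte genes was called, with a median of -0.05 beside 0.23 for all genes. Of all genes tested there 0.233% were called higher and 0.0358% lower. In the E9.5 midgut 5 of 21 were called higher and 1 lower, against 1.23% and 1.35% of all tested genes, with a median of 0.70. Fabp1 was the only enterocyte gene of 27 to pass the test of a change in origin difference with stage. At E9.5 it was lower in extraembryonic cells (21.1, 38.4, 23.2 and 62.2 TPM in exMidgut, 122, 192, 161 and 249 TPM in emMidgut), and the interaction was 4.78 ± 0.60 (limma adjusted p = 0.0025).

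Yolk sac and visceral endoderm genes, the secreted carriers and uptake machinery of the tissue from which exSI cells descend, were also higher in part. Of 20 tested genes 6 were called higher (30.0%, against 0.51% of all tested genes) and none lower, 12 were higher at an unadjusted p below 0.05 (against 5.76%), and the median was 1.18, or 0.83 without the 2 emSI libraries, when 1 was called. Afp, the fetal serum protein made by yolk sac and fetal liver, was at 832, 345 and 512 TPM in exSI and 71.8, 180 and 56.7 TPM in emSI (2.53 ± 0.41, limma adjusted p = 0.015). Apoe, an apolipoprotein of lipid transport, was at 451, 514 and 546 TPM against 35.2, 87.7 and 86.4 TPM (2.94 ± 0.32, limma adjusted p = 0.00076). Rbp4, the retinol carrier of blood, was at 2826.5, 2366.6 and 3753.5 TPM against 944, 946 and 984 TPM (1.61 ± 0.16, limma adjusted p = 0.00046). The emSI libraries were tight for Rbp4, and exSI replicate 1 was highest for Afp. The others were Trf, the iron carrier transferrin (1.62 ± 0.32), the lysosomal protease Ctsl (1.01 ± 0.19), and Amn, counted above as well (3.25 ± 0.33). Cubn and Dab2 also stood in both lists, so the enterocyte and visceral endoderm lists are not independent of each other. With a library left out, Apoe, Rbp4 and Amn were called in all 6 fits, Afp in 2 and Trf and Ctsl in 1. Ttr, the thyroid hormone carrier, was at 472, 494 and 534 TPM in exSI and 217, 294 and 368 TPM in emSI, without overlap, and was not called (0.80 ± 0.21, limma adjusted p = 0.14). In the E9.5 midgut, 13 of 23 tested genes of this list were called higher (against 1.23% of all tested genes) and none lower, with a median of 1.78. In E13.5 colon 1 of 17 was called higher and none lower, against 0.233% and 0.0358% of all tested genes. The median was 0.72 beside 0.23 for all genes. Afp was far more abundant in the E9.5 midgut, between 4641 and 8162 TPM in exMidgut and 662 and 978 TPM in emMidgut. Its origin difference was not shown to change with stage (interaction -0.44 ± 0.46, limma adjusted p = 0.82). The similarity of whole profiles was also measured, by the mean Pearson correlation across 14084 genes, which are not independent replicates. It was 0.874 between exSI and emSI libraries, 0.896 within exSI, 0.899 within emSI, 0.853 between exSI and exColon and 0.848 between exSI and exMidgut. With yolk sac endoderm (YsEndo) it was 0.805 for exSI and 0.781 for emSI.

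**Figure D4:**
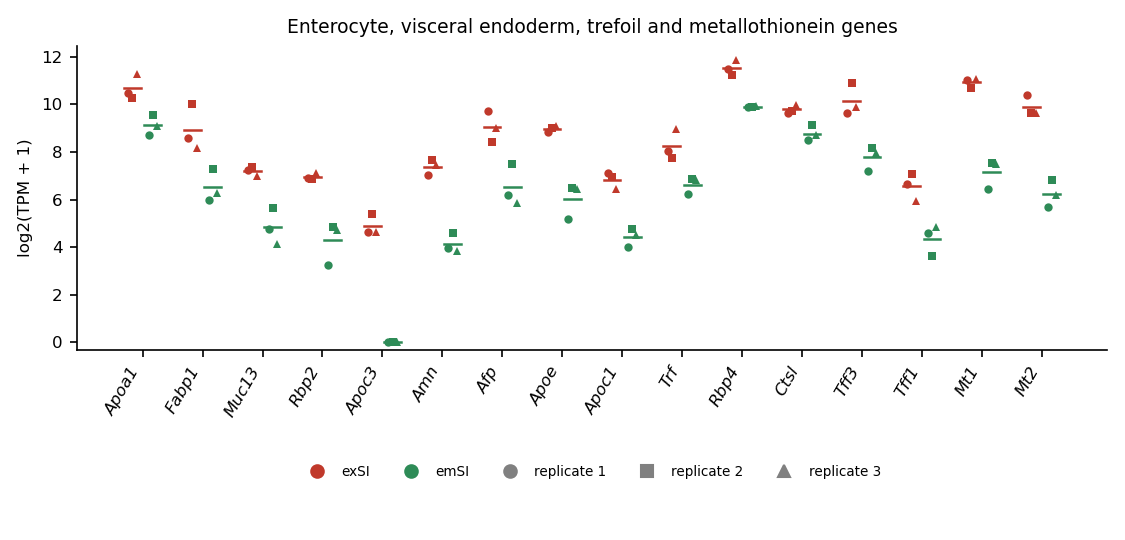
Level (y axis, log2(TPM + 1)) of enterocyte, visceral endoderm, trefoil and metallothionein genes in each library, with exSI in red, emSI in green, the marker shape giving the replicate and the bar the group mean. No gene shown has overlapping groups, and the gap is wide for Mt1, Mt2, Apoe and Amn.

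Both metallothioneins tested were higher. Mt1 and Mt2, which bind zinc and copper and are induced by metals and glucocorticoids, were outside the lists and are described because of their values. Their promoters are shown because metal response elements, the sites bound by the zinc sensor MTF1, lie in them; capitals mark TGCACNC and TGCGCNC on both strands, and these do not overlap each other.

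Mt1, chr8:94178839-94179138, plus strand: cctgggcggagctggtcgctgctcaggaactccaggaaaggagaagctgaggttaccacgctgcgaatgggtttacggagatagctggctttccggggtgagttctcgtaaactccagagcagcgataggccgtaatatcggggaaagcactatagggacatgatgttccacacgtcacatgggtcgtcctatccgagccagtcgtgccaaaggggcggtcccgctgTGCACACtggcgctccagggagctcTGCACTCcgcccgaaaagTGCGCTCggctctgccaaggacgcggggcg

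Mt2, chr8:94172368-94172667, plus strand: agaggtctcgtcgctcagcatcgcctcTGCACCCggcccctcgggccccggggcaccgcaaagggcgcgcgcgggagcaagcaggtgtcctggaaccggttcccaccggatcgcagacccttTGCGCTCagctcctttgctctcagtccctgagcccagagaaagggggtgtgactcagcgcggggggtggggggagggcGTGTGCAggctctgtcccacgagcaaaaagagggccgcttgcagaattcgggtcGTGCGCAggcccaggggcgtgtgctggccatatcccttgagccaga

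The Mt1 window held 3 matches and the Mt2 window 4. At least 1 match was present in 25.7% of all 32851 windows, 3 or more in 1.97% and 4 or more in 0.517%, and among windows of tested genes the shares were 36.3%, 3.35% and 0.879%. Mt1 was at 2090, 1665 and 2136 TPM in exSI and 86.4, 185 and 179 TPM in emSI, and Mt2 at 1325, 784 and 799 TPM against 51.1, 112 and 72.5 TPM. The groups were far apart and tight for both (3.77 ± 0.26, limma adjusted p = 1.8e-05 for Mt1, and 3.64 ± 0.30, limma adjusted p = 7.1e-05 for Mt2), and both calls held with each library left out. The Mt2 call was lost when the 12 E13.5 libraries shared a fit (limma adjusted p = 0.147), where Mt1 kept its own (0.00724), and both were lost with no filter on low values. In E13.5 colon Mt1 was at 401, 129 and 563 TPM in exColon and 14.6, 80.2 and 8.65 TPM in emColon. In the E9.5 midgut the difference was 0.82 and was not called, and the small intestine minus midgut interaction of Mt1 was 2.96 ± 0.62 (limma adjusted p = 0.084).

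The trefoil peptides, which protect mucosal surfaces, were higher: Tff3 (788, 1878 and 944 TPM against 144, 288 and 247 TPM) and Tff1 (98.9, 133 and 60.8 TPM against 22.9, 11.2 and 27.8 TPM). The Tff1 call held in 1 of the 6 fits with a library left out and was lost without the 2 mesenchyme-containing emSI libraries (1.70, limma adjusted p = 0.64), as was that of Tff3 (2.17, limma adjusted p = 0.44). Tff1 was the only call among 8 tested genes of anterior gut, stomach and pancreas (12.5%, against 0.51% of all tested genes called higher). The median of that list was -0.04, or -0.47 without those 2 libraries. The rises that follow were chosen after their values were seen. Sycn, a protein of pancreatic zymogen granules, was at 429, 938 and 492 TPM in exSI and 51.2, 44.2 and 109 TPM in emSI. Lgals9, a galactose-binding lectin, was at 101, 166 and 141 TPM against 17.3, 7.32 and 10.1 TPM. In each of these 4 genes every exSI library was above every emSI library. The secreted proteins Ambp, Clu, Serpinf1 and Apoc1, the protease Tmprss2 and the respiratory chain subunit Cox7b rose by between 1.30 and 2.73. The remaining calls were Adgrg7, Baiap2l1, Errfi1, Gmfg, Gstm1, Ipp, Jaml, Lgals3bp, Lmf1, Phf11d, Serpinb1a, Slc9b1, Tst, Wfdc10 and 4933402E13Rik, with differences from 1.16 to 4.90.

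Among the falls, the largest was Slc38a5 (chrX:8271133-8280179), a glutamine and serine transporter. It was listed at 0 in all 3 exSI libraries and was at 282, 131 and 378 TPM in emSI (-7.92 ± 0.55, limma adjusted p = 1.8e-05). It passed the filter only through emSI, so its direction and separation were built into the selection. The call held with each library left out. In the E9.5 midgut it was present on both sides (22.6, 13.9, 27.2 and 40.5 TPM in exMidgut, 17.1, 294, 24.2 and 35.8 TPM in emMidgut), and the interaction was -7.02 ± 0.97 (limma adjusted p = 0.0041). Of 16 tested genes of amino acid and iron transport it was the only one called, against 0.229% of all tested genes called lower. The median of that list was 0.32. Mfap2, a microfibril protein of the extracellular matrix, was at 8.67, 0 and 0 TPM in exSI and 455, 277 and 281 TPM in emSI (-7.27 ± 0.76, limma adjusted p = 0.00056). Mfap4, another microfibril protein, was listed at 0 in exSI and at 50.3, 37.1 and 8.69 TPM in emSI. Smoc2, a matrix protein and intestinal stem cell marker, was listed at 0 in exSI and at 77.9, 11.4 and 9.37 TPM in emSI. For Mfap4, Smoc2, Slitrk6 (31.1, 13.46 and 6.87 TPM in emSI) and Gstk1 (42.4, 12.6 and 10.6 TPM) the emSI library with the highest mesenchyme sum, replicate 1, was the highest and replicate 3 the lowest, and the part of mesenchyme RNA in their differences was not tested. With a library left out, Mfap2 was called in all 6 fits, Mfap4 in 2 and Smoc2 in 0. Mmp2 was at 45.0 and 10.8 TPM in emSI replicates 1 and 2 and listed at 0 in replicate 3 and in exSI. Of 18 tested matrix genes only Mfap2 and Mfap4 were called, against 0.229% of all tested genes called lower, and neither was called without the 2 mesenchyme-containing emSI libraries. The median was -0.03. Of 14 tested stem cell and Wnt target genes only Smoc2 was called, against the same 0.229%, with a median of 0.17, or 0.34 without the 2. Mfap4 and Smoc2, at 0 in exSI, passed the filter only through emSI, and Mfap2, at 0 in exSI replicates 2 and 3, largely so. The direction of these calls was therefore built into the selection.

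Of 25 secretory lineage genes 12 passed the filter, 1 was called higher (Tff3, above) and 1 lower (0.51% and 0.229% of all tested genes), and neither was called without the 2 mesenchyme-containing emSI libraries. The median was -1.97, but members at 0 in exSI passed the filter only through emSI, so its direction was partly built into the selection. The summed level of the list was 911, 2050 and 1060 TPM in exSI and 292, 681 and 917 TPM in emSI, with overlapping groups, and Tff3 alone made up most of it in exSI but not in emSI. Chgb, a protein of endocrine granules, was listed at 0 in exSI and was at 8.89, 138 and 184 TPM in emSI (-5.99 ± 0.99, limma adjusted p = 0.017), a call that held in 1 of the 6 leave-one-out fits. The endocrine transcription factor Pax6 was at 1.74, 0 and 0.0912 TPM in exSI and 8.80, 8.74 and 15.3 TPM in emSI, and Neurod1, another, was listed at 0 in exSI and at 7.17, 2.62 and 7.81 TPM in emSI, neither being called. Neurog3, which starts endocrine differentiation, was listed at 0 in exSI and at 0, 71.1 and 11.5 TPM in emSI, and Gcg, encoding glucagon, was at 181 TPM in emSI replicate 3 and at 0 in the other 5 libraries. The hormone gene Sct was not lower, at 90.9, 151 and 79.3 TPM in exSI and 69.4, 86.6 and 97.9 TPM in emSI. Resp18 and Abcc8, further genes of endocrine cells that were noticed among the calls, were listed at 0 in exSI and at 11.2, 21.0 and 12.6 TPM and at 9.62, 24.6 and 29.1 TPM in emSI. Genes of pancreatic acinar cells, noticed after their values were seen, were called in both directions, since Sycn, described above, was higher in exSI while the following 3 were lower. Ctrb1, a digestive protease precursor, was listed at 0 in exSI and at 43.0, 18.6 and 37.8 TPM in emSI, Clps, the cofactor of pancreatic lipase, was at 12.6, 2.02 and 16.9 TPM against 101, 377 and 321 TPM, and Reg1 was listed at 0 against 9.497, 9.45 and 22.1 TPM. Cpa1, a marker of acinar progenitors, was present in both groups, at 198, 126 and 40.5 TPM in exSI and 97.9, 128 and 167 TPM in emSI, with overlapping groups, and was listed at 0 in all E13.5 colon and E9.5 midgut libraries considered here. With a library left out, Ctrb1 and Clps were called in all 6 fits, Abcc8 in 2 and Resp18 and Reg1 in 0. Whether a few endocrine or pancreatic cells in a library of few cells carried these transcripts was not tested.

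**Figure D5:**
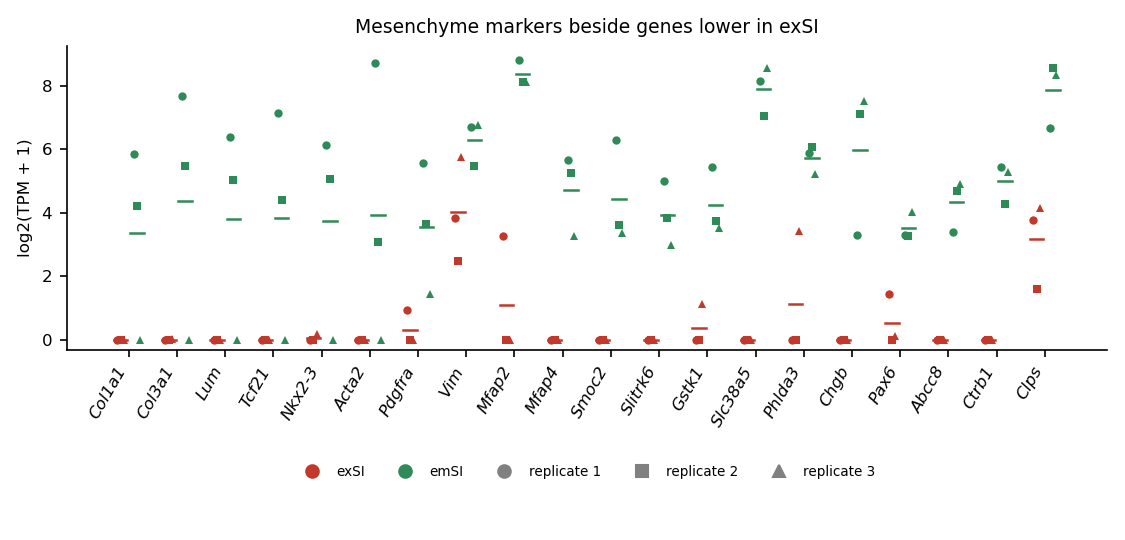
Level (y axis, log2(TPM + 1)) of mesenchyme markers and of genes lower in exSI in each library, with exSI in red, emSI in green, the marker shape giving the replicate and the bar the group mean. Col1a1, Col3a1, Lum and Tcf21 are present in emSI replicates 1 and 2 and at 0 in replicate 3, whereas Mfap2, Slc38a5 and Phlda3 are present in all 3 emSI libraries.

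Genes of the dividing cell leaned lower in exSI without passing the test. Of 22 proliferation genes, all tested, none was called, 21 had a difference below 0 and 8 had an unadjusted p below 0.05, all lower, against 4.56% of all tested genes that were lower at that level, and the median was -0.48 (-0.40 without the 2 emSI libraries). Top2a, a topoisomerase of dividing cells, was at 79.5, 66.0 and 102 TPM in exSI and 180, 176 and 160 TPM in emSI (-1.07 ± 0.24, limma adjusted p = 0.094). Birc5, which encodes survivin, was at 199, 368 and 359 TPM against 633, 673 and 556 TPM (-1.05 ± 0.23, limma adjusted p = 0.078), and Pcna, the DNA polymerase clamp, showed little difference (-0.09 ± 0.23). The groups did not overlap for Top2a or Birc5. In the E9.5 midgut, both sides wild type, 12 of the 22 had a lower level at an unadjusted p below 0.05. Among all genes tested there 1164 of 12432 did, and the list median was -0.59 beside -0.04. In E13.5 colon 2 of the 22 did, against 325 of 11167, and the median was -0.13 beside 0.23. No listed gene was called in either contrast. Pclaf, a partner of PCNA outside the list, was called, at 65.9, 34.1 and 75.2 TPM in exSI and 285, 328 and 265 TPM in emSI (-2.38 ± 0.30, limma adjusted p = 0.0023). Chromatin genes noticed beside it were Hist3h2ba (-1.48 ± 0.18), H3f3a (-1.10 ± 0.21) and Hmgn2 (-1.01 ± 0.16), and H3f3a has near-identical copies with which it can share reads. The other falls were Ifitm2, Nmral1, Nupr1, Pop4, Sh3bgr, Tuba1a and Wfdc2, with differences from -4.78 to -1.18.

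Among imprinted genes, Igf2, the fetal growth factor expressed from the paternal allele, was lower, at 260, 207 and 204 TPM in exSI and 387, 526 and 524 TPM in emSI (-1.09 ± 0.20, limma adjusted p = 0.029). The call held in 1 of the 6 fits with a library left out and was lost without the 2 mesenchyme-containing emSI libraries, where the difference was -1.23 (limma adjusted p = 0.46). It was the only one of 15 tested paternally expressed genes called, against 0.229% of all tested genes called lower. The list median was -0.54, or -0.22 without those 2 libraries. None of 9 maternally expressed genes was called (median -0.34, or -0.01 without the 2). Over all 15 maternally expressed genes listed, those not tested included, the summed level was 2733, 2433 and 2620 TPM in exSI and 1699, 1340 and 1478 TPM in emSI, higher in exSI without overlap and opposite in sign to the median. Gnas, the most abundant of the latter, was at 387, 413 and 467 TPM against 627, 665 and 615 TPM (-0.59 ± 0.16, limma adjusted p = 0.15). In several lists no member was called. The 21 tested endoderm and intestinal transcription factors had a median of 0.32, and Cdx2 differed by 0.32 ± 0.32 and Isx by 0.40 ± 0.25. The 18 epithelial genes had a median of 0.39, with Krt8 at -0.09 ± 0.18. The 10 DNA methylation enzymes had a median of -0.32, and Dnmt1, which copies methylation at replication, was at 59.1, 47.9 and 58.0 TPM in exSI and 91.7, 56.8 and 68.2 TPM in emSI. None was called among 11 signals from the gut epithelium (median -0.59), where Shh was at 29.8, 28.9 and 64.7 TPM against 61.0, 58.2 and 110 TPM. The 14 MHC class I genes (median 0.66), 14 interferon response genes (0.53), 15 immediate early genes (0.56), 16 glycolysis genes (-0.05), 8 Hox genes (0.08), 39 axon guidance genes (-0.20), 10 cadherins (0.17) and 5 genes that escape X inactivation (-0.01) also held no call. Several of these medians moved without the 2 mesenchyme-containing emSI libraries. That of the immediate early genes became 0.002, of the MHC class I genes 0.22, of the interferon response genes 0.97, of the Hox genes 0.70 and of the gut epithelial signals -0.12, and those of the axon guidance and glycolysis genes turned positive, at 0.24 and 0.13, as did that of the genes that escape X inactivation, at 0.06. The medians of the endoderm and intestinal transcription factors and of the epithelial genes became 0.20 and 0.25. Among abundant members of these lists, B2m differed by 0.25 ± 0.24, Ldha by -0.20 ± 0.23, Sema3c by 0.50 ± 0.30 and Ddx3x by 0.08 ± 0.29, and Fos, at 843, 474 and 1269 TPM in exSI against 399, 264 and 553 TPM in emSI, had overlapping groups and was not called despite a difference of 1.04 ± 0.34. A missed threshold does not show that such genes were equal.

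The calls were compared with other gut libraries of the series, whose cells were separate. Of the 58 rises 32 (55.2%) were also called higher in the E9.5 midgut, where they made up 20.9% of the 153 rises, and of the 26 falls 8 (30.8%) were also called lower, 4.76% of 168. Of the 125 midgut rises tested in the small intestine 113 (90.4%) had a difference above 0 there, as did 49.7% of all tested genes, with a median of 1.54, and of 129 midgut falls 113 (87.6%) had one below 0. Genes at 0 in all libraries of one group passed the filter only through the other, among them the X-linked genes that rose in both contrasts, so these shares were partly fixed by the selection. The interaction of origin with stage passed the test (limma adjusted p below 0.05, no fold threshold) for 16 of 13544 genes (0.118%), a count that became 65 without emSI replicate 3, 32 without emSI replicate 2 and 29 without exSI replicate 1, and lay between 8 and 10 without emMidgut replicate 1 or 3 or exMidgut replicate 2 or 4. In E13.5 colon 26 genes (0.233%) were called higher and 4 (0.0358%) lower in exColon, of which 20 and 2 were calls of the same direction in the small intestine. The colon contrast had a median of 0.23 over all genes, so that small colon differences are read against that shift. The interaction of origin with organ passed for 2 of 12483 genes (0.016%), and 1038 (8.32%) had an unadjusted p below 0.05. It passed for 0 genes without exSI replicate 2, emSI replicate 2 or exColon replicate 1. Without exSI replicate 3, emSI replicate 3, exColon replicate 3 or any emColon library it passed for 1 gene, which was neither of the 2 below, so both calls rest on single libraries. Serpinb1a, an inhibitor of neutrophil proteases, was at 121, 239 and 150 TPM in exSI and 41.5, 30.7 and 25.6 TPM in emSI, but at 67.1, 173 and 66.2 TPM in exColon and 257, 272 and 195 TPM in emColon. Tnni1, a muscle troponin, was at 8.86, 25.5 and 21.0 TPM in exSI and 4.98, 3.42 and 4.98 TPM in emSI, and at 0, 2.63 and 0 TPM in exColon against 45.0, 57.8 and 34.2 TPM in emColon. Both had higher levels in exSI than in emSI and lower levels in exColon than in emColon, but Tnni1 was not itself called in the small intestine. Apoe and Rbp4, called in the small intestine, differed by 0.11 and -0.38 in the colon, but their interactions did not pass.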

How the data were processed

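RNA of 40 to 50 sorted cells was amplified by a Smart-seq2-like poly(A) protocol. Per the labels and the submitters' processing notes, the authors used cutadapt 4.1 for trimming, STAR 2.7.9a for alignment to mm10 and StringTie 2.0.6 with GENCODE genes for quantification. The deposited files give TPM, FPKM (fragments scaled by gene length and library size) and coverage (a signal, the mean depth over a gene) for each gene. Whole counts were not used here, so no count model was applied. Reads shared by near-identical copies are divided by the quantifier. Strand use was not given in the sources used here.

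TPM was summed for each of 32287 gene identifiers, of which 32235 matched GENCODE vM21 (GRCm38), the source of coordinates and gene types. Protein-coding genes off the Y chromosome with TPM above 1 in at least 3 of the 6 libraries were tested on log2(TPM + 1) with limma 3.58.1 (R 4.3.3, eBayes with trend, Benjamini-Hochberg adjustment over all tested genes). Calls needed an adjusted p below 0.05 and an absolute difference above 1. Interactions with colon (12 libraries) and midgut (14 libraries) used one fit each. Data of 11376 genes shaped on exSI against emSI were simulated, with 50 genes for each size of change. A log2 change of 1 was recovered in 2%, of 2 in 32% and of 4 in 80%, with 2 false calls. The simulated noise was normal with no floor at 0, unlike called genes listed at 0 throughout a group, so these rates do not cover such genes. E13.5 replicates were single embryos, and each midgut replicate was a pool of embryos.

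Genes were named by rule: the 10 largest separated rises and falls, the targeted gene, reporters and sex-linked genes, genes the study text names, called members of each list (or up to 3 abundant members where none was called), and up to 5 interaction calls in each direction. Others were named after their values were seen. The members and lists were chosen with earlier results of these data known. Promoter windows came from RefSeq; 47 of 58 rises and 18 of 26 falls matched. Alternatives were another pseudocount, other filters, quantile and median-ratio scaling, FPKM, eBayes without trend, all gene types, the 12 E13.5 libraries in one fit, a replicate block, each library left out, and the 2 mesenchyme-containing emSI libraries left out.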

Additional observations from a re-analysis of the deposited data

Results flagged for a closer look

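A limma interaction test (adjusted p below 0.05, 3 libraries per group at E13.5 and 4 at E9.5) picked out genes whose difference between extraembryonic and embryonic cells was not the same in the small intestine and in another gut region. Against the colon these were Tnni1 (6.62, adjusted p = 0.039) and Serpinb1a (3.68, adjusted p = 0.039). Against the E9.5 midgut the difference was more negative at E13.5 for Slc38a5 (-7.02), Phlda3 (-6.84), Chgb (-5.96), Ctrb1 (-5.01), Kdelr3 (-4.21), Resp18 (-3.95), Reg1 (-3.77), Ccng1 (-3.18) and Commd3 (-1.14). It was more positive for Acta1 (5.59), Fabp1 (4.78), Wfdc10 (4.50), Jaml (4.07), Ndufa4l2 (3.87), Serpinf1 (2.97) and Emid1 (2.95). Chgb, Ctrb1, Resp18, Reg1, Jaml and Wfdc10 were listed at or near 0 in the midgut, so their interactions restate the small intestine difference, and Ndufa4l2 was listed at 0 in all 6 small intestine libraries, so its interaction restates that of the midgut. Kdelr3, a receptor that returns proteins to the endoplasmic reticulum, was between 21.8 and 54.9 TPM in exMidgut and at most 0.0835 TPM in exSI, against 15.0, 5.88 and 9.29 TPM in emSI. The interactions of Slc38a5, Phlda3, Ctrb1, Kdelr3, Resp18, Reg1, Fabp1 and Wfdc10 passed with each of the 14 libraries left out, and those of Ndufa4l2, Acta1 and Commd3 in 2, 5 and 5 of the 14. Those of Emid1, Jaml, Chgb, Serpinf1 and Ccng1 passed in 6, 6, 7, 9 and 13.

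Single libraries stood apart from the other 3 of their group, on the log2(TPM + 1) scale, for Acta1 in exMidgut replicate 1 (3.88 TPM, 0 in the others), Ndufa4l2 in exMidgut replicate 1 (1.96 TPM, 0 in the others) and Wfdc10 in exMidgut replicate 3 (2.03 TPM, 0 in the others). Such a mark arises by chance in about 1 of 20 groups. Where all other libraries are at 0, any level in the remaining library sets the mark, so that rate does not apply to these genes. Groups of 3 libraries were not tested this way.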

How the results depend on the processing

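No sign changed for any of the 84 called genes under the 19 alternatives to the comparison of exSI with emSI. Since no called gene had overlapping groups, leaving out libraries or changing the filter, the fit or the pseudocount could not reverse a sign. Only FPKM and the quantile and median-ratio scalings could have done so. The calls, 58 higher and 26 lower, became 26 and 16 with eBayes without trend (25 and 7 of the original calls among them), 7 and 1 with no filter on low values, and 12 and 1 without the 2 mesenchyme-containing emSI libraries (12 and 5 when the colon libraries shared the fit). With a library left out they ranged from 30 to 47 higher and 11 to 23 lower. The other alternatives gave 41 to 66 higher and 18 to 35 lower. When the 12 E13.5 libraries shared a fit, 28 of the 84 calls were lost, among them Lgals9, Fabp1, Muc13, Apoa1, Tff1, Cdkn2b and Mt2. The small intestine minus colon count of 2 became 14 with no filter, 0 with a pseudocount of 0.1, 1 without the 2 emSI libraries and 0 to 3 with a library left out. The midgut count of 16 became 30 with no filter, 45 without the 2 emSI libraries and 8 to 65 with a library left out. With fewer libraries, part of a loss is built in; otherwise the cause was not tested. Correlations of exSI with emSI, exColon, exMidgut and YsEndo became 0.91, 0.898, 0.896 and 0.863 over every gene above 0, and those with emSI and YsEndo became 0.861 and 0.789 by Spearman's method.

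Replicate numbers were not treated as pairs. Deviations of same-numbered exSI and emSI libraries correlated at 0.06, 0.072 and 0.05, under 0.1, although each library correlated best with its own number. The methods describe GFP+ control cells and mCherry+ cells as sorted from organs of knockout lineage-traced embryos, with each intestine split into small intestine and colon. The exSI, emSI and colon libraries may therefore share embryos, but the labels do not tie the numbers to embryos. A replicate block gave 66 higher and 35 lower as a random effect, with all 84 calls among them, and 58 and 20 as a fixed term, with 49 and 20 of the original calls among them, and the interaction counts with a random block were 2 and 22. Read depth in counts is unknown, and no counting interval was given.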
